A study of Mus musculus with 6 samples.

Results

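The C-type lectin receptor genes described here were the 33 genes, of 19938 measured, whose symbol starts with Clec and a digit. They comprised 8 genes of the Clec2 subgroup, 11 of the Clec4 subgroup and 14 others. The family was selected on the rises of Clec4e, Clec4d and Clec2i in the comparison of genotypes below. The differences of its members between genotypes are therefore given as a description, with no test. The RefSeq gene table lists 34 genes with such a symbol, and the other, Clec2f, was not analysed here. Of the members, 26 had a mean over all arrays below 6.20, the median of all log2 values, and are called dim. The other 7 were at or above it. Nearest to that threshold, Clec18a had a mean log2 level of 6.47 on one side of it and Clec4g a mean of 6.09 on the other.

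The cells were LSK CD150- cells from mouse bone marrow, that is lineage-negative progenitors with Sca-1 and Kit on their surface and without CD150, a marker of long-term stem cells. All 6 mice carried floxed Cebpa alleles (Cebpa fl/fl), and all received pIpC, a double-stranded RNA mimic that induces interferon. The 3 control mice were Cebpa fl/fl, and the 3 deleted mice were Cebpa fl/fl;Mx1Cre. Cells were taken at day 18, and each mouse was hybridised to its own array, with the letters a, b and c naming mice within a genotype. The sources used here do not give their age. The Mx1 promoter responds to interferon in many cell types, so deletion is not limited to blood cells. Controls carried no Cre, so carrying Mx1Cre and losing Cebpa cannot be told apart.

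C-type lectin receptors carry a fold that in many members binds sugars or lipids of microbes, or molecules released by dying cells. Mincle (Clec4e), MCL (Clec4d) and Dectin-2 (Clec4n) have no signalling motif of their own. They pair with the adaptor FcRγ (Fcer1g), which recruits the kinase Syk, and Syk passes the signal to Card9, Bcl10 and Malt1. Other members bear an activating or an inhibitory motif in their own tail. Several Clec2 proteins are ligands on the cell surface for Nkrp1 receptors (the Klrb1 genes) of natural killer and innate lymphoid cells.

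Levels are log2 values as deposited, differences are deleted minus control with the standard error (SE) of the limma fit, and ± after a level is the SD over 3 mice. In the following, a gene other than a member rose or fell where limma's Benjamini-Hochberg adjusted p over all 19938 genes was under 0.05. By that rule 140 genes (0.702%) were higher and 146 (0.732%) lower in deleted cells, and 3164 genes (15.9%) had an unadjusted p under 0.05. The share of changed genes that were higher was 49.0%, against 61.6% after quantile normalization and 65.8% with each array centred on its median. The median level of an array was 6.22 to 6.23 in control and 6.16 to 6.20 in deleted mice. Kdm5d and Eif2s3y, which are Y-linked, had levels of 8.04 to 8.49 on all 6 arrays, although the labels call the mice female. Of 8 listed markers of LSK cells, 6 were measured. Their mean level was 9.55 to 9.68 in control and 9.47 to 9.57 in deleted mice, and Sca-1 itself (Ly6a) was not analysed here. Genes of that list moved in both directions: Cd48 rose by 1.00 ± 0.11 (SE; limma adjusted p = 0.0052), while Kit fell by 0.75 ± 0.13 (adjusted p = 0.027) and Flt3 fell by 0.71 ± 0.14. The call of Kit was lost without any one mouse but deleted mouse a (adjusted p of 0.0537 to 0.101).

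The targeted gene, Cebpa, had log2 levels of 7.84, 7.85 and 7.73 in control mice a, b and c and of 6.37, 5.82 and 6.09 in deleted mice a, b and c. The difference was -1.71 ± 0.14 (SE), with an adjusted p of 0.000883 in limma. An exact two-sided permutation test gave p = 0.1, the smallest that 3 against 3 mice allow. Whether the probes lie in the deleted part of the gene was not tested. Among the other C/EBP family genes, Cebpg rose by 0.73 ± 0.12 (SE; limma adjusted p = 0.024) and Cebpd by 0.55 ± 0.10 (adjusted p = 0.0336). The call of Cebpd was lost without any one of the 6 mice (adjusted p of 0.0618 to 0.12) and with the title letter as a replicate block (0.0579). That of Cebpg was lost without control mouse b or any one deleted mouse (adjusted p of 0.0631 to 0.0881). Cebpb differed by 0.70 ± 0.17 with an adjusted p of 0.0909 in limma.

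Of the 33 members, 21 had a positive and 12 a negative difference, with a median of 0.058 and a range of -0.687 to 1.57. The split was 18 to 15 with a median of 0.011 after cyclic loess, and 25 to 8 with a median of 0.105 with each array centred on its median. Over all genes, 11272 differences were positive and 8666 negative, with a median of 0.029. Clec4e, Clec4d, Clec2i and Clec10a met the rule for higher genes and 0 members the rule for lower ones, beside backgrounds of 0.702% and 0.732%. The groups did not overlap in 9 members. In 8 of them all deleted mice were above all control mice, and in Clec14a all were below. The same held for 12.5% and 8.68% of all genes. Without control mouse b Clec4e alone met the rule for higher genes, and Clec4e and Clec2i alone did so without control mouse a or without deleted mouse b or c. Nothing is read from these member counts, since the same contrast chose the family. Leaving out Clec4e, Clec4d and Clec2i, 30 members had a median difference of 0.046. In these bulk samples, more cells of a type and more RNA per cell cannot be told apart.

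**Figure D1:**
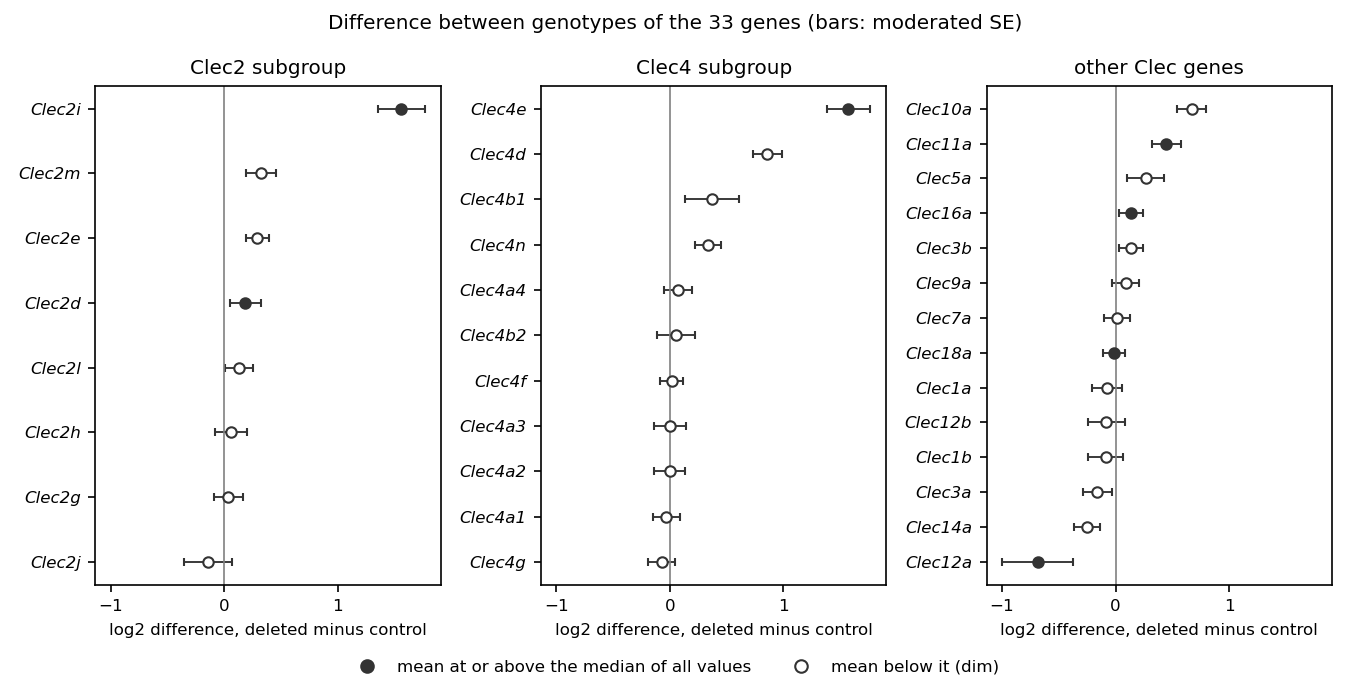
Log2 difference between deleted and control mice (x axis, with its SE) for the 33 members (y axis), by subgroup; filled symbols are members at or above the median of all values and open symbols dim ones. Clec4e, at 1.57, and Clec2i, at 1.56, lie farthest to the right, and Clec12a, at -0.687, farthest to the left.

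Clec4e encodes Mincle, which binds mycobacterial glycolipids and a nuclear protein set free by dying cells. Its log2 level was 7.93, 7.50 and 7.13 in control mice a, b and c and 9.32, 9.02 and 8.93 in deleted mice a, b and c. Every deleted mouse was above every control mouse, and the control mice were spread more widely than the deleted ones. The means were 7.52 ± 0.40 and 9.09 ± 0.21 (SD, n = 3 each), a difference of 1.57 ± 0.19 (SE) or 2.97-fold.

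Clec4d encodes MCL, a receptor of the same glycolipids that joins Mincle in one complex with FcRγ. Its level was 5.08, 5.04 and 5.32 in control mice a, b and c and 5.80, 6.11 and 6.11 in deleted mice a, b and c. The groups did not overlap, yet all 6 values were below the median of all values, where a difference can be compressed by background signal. The means were 5.15 ± 0.15 and 6.01 ± 0.18 (SD, n = 3 each), a difference of 0.86 ± 0.13 (SE).

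Other members listed here as pairing with FcRγ are Clec4n (Dectin-2), a receptor of fungal mannans, and Clec4b1. Clec4n read 4.31, 4.36 and 4.48 in control mice a, b and c and 4.62, 4.88 and 4.65 in deleted mice a, b and c, a difference of 0.34 ± 0.11 (SE). Its groups did not overlap, and all 6 values lay below 4.91, the 25th percentile of all values. Clec4b1 read 3.46, 3.70 and 4.003 against 3.50, 4.43 and 4.34, a difference of 0.37 ± 0.24 (SE) with overlapping groups. The 4 listed FcRγ partners had 4 positive differences, with a median of 0.614. Clec4e and Clec4d, whose rises chose the family, are among these 4, so nothing is read from that count or median.

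The remaining Clec4 genes showed differences near 0. Clec4g, an endocytic receptor of liver sinusoidal endothelium, read 6.05, 6.07 and 6.25 in control and 6.14, 6.13 and 5.88 in deleted mice a, b and c, a difference of -0.07 ± 0.12 (SE) with overlapping groups. It was the only member with a second row, which read 5.25 to 5.54 and differed by -0.022. Clec4g is counted as dim by its mean, although 1 of its 6 values was above the median of all values. The inhibitory receptors Clec4a2 and Clec4a4 (Dcir genes), Clec4a1, Clec4a3, Clec4b2, and Clec4f of Kupffer cells differed by -0.032 to 0.073. Together with Clec4n and Clec4b1, these dim genes ranged from 3.35 to 6.05.

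**Figure D2:**
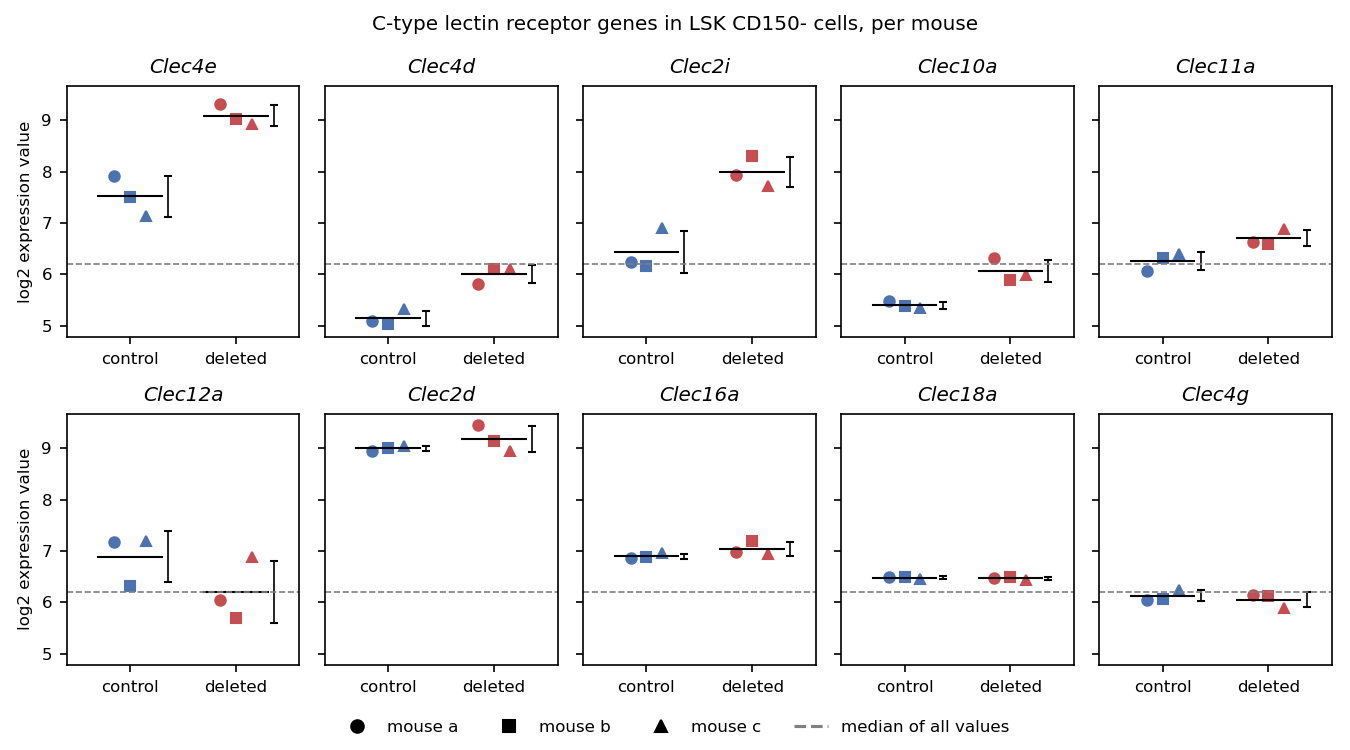
Log2 level (y axis) of Clec4d and the members at or above the median of all values on any array, 1 panel a gene. Each mouse is a point, control beside deleted, with a bar at each mean and its SD (n = 3). The dashed line is the median of all values, 6.20. Clec4e, Clec4d, Clec2i, Clec10a and Clec11a show no overlap between genotypes, while Clec12a, Clec2d, Clec16a, Clec18a and Clec4g do.

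Clec2i encodes Clr-g, a ligand of the Nkrp1f receptor (Klrb1f). Its level was 6.24, 6.17 and 6.90 in control mice a, b and c and 7.95, 8.31 and 7.73 in deleted mice a, b and c. The groups were separated by more than the spread within either, and 1 control value lay below the median of all values. The means were 6.44 ± 0.40 and 7.997 ± 0.29 (SD, n = 3 each), a difference of 1.56 ± 0.21 (SE) or 2.95-fold.

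Clec2d encodes Clr-b, a ligand of an inhibitory Nkrp1 receptor that many blood cells display. It read 8.94, 8.997 and 9.04 in control and 9.45, 9.14 and 8.95 in deleted mice a, b and c. The groups overlapped, because deleted mouse c fell among the controls. The difference was 0.19 ± 0.13 (SE).

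The other 6 Clec2 genes were dim, with levels of 4.35 to 6.19 and differences of -0.144 to 0.324, of which 5 were positive. Clec2e read 4.75, 4.70 and 4.76 in control and 5.13, 4.94 and 5.01 in deleted mice a, b and c, with no overlap. Clec2m differed by 0.32 ± 0.13 (SE) and likewise did not overlap. Clec2g, Clec2h, Clec2l and Clec2j overlapped between genotypes.

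Clec10a encodes a galactose-binding endocytic receptor (MGL) of macrophages and dendritic cells. It read 5.47, 5.38 and 5.35 in control and 6.32, 5.90 and 5.997 in deleted mice a, b and c, a difference of 0.67 ± 0.13 (SE) or 1.59-fold. The groups did not overlap, and deleted mouse a alone exceeded the median of all values. Clec10a no longer met the rule for higher genes after cyclic loess or with any one of the 6 mice left out.

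Clec11a encodes stem cell growth factor, a secreted protein of bone marrow. Its level was 6.07, 6.33 and 6.39 in control and 6.63, 6.60 and 6.89 in deleted mice a, b and c. The groups did not overlap, and the difference was 0.45 ± 0.13 (SE), short of the rule for higher genes. The other secreted members, Clec3a, Clec3b (tetranectin) and Clec18a, overlapped between genotypes. Clec18a had nearly equal values in all mice, from 6.43 to 6.50. Its difference of -0.01 ± 0.09 (SE) turned to 0.041 after quantile normalization, to 0.034 with centred medians and to 0.004 after cyclic loess.

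Clec12a encodes an inhibitory receptor of granulocytes, monocytes and their progenitors. Its level was 7.17, 6.31 and 7.19 in control and 6.05, 5.68 and 6.88 in deleted mice a, b and c. The genotypes overlapped, since control mouse b lay below deleted mouse c. The difference was -0.69 ± 0.31 (SE), and the SD within a genotype was 0.50 in control and 0.61 in deleted mice. Its neighbour Clec12b, also inhibitory, was dim and differed by -0.08.

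Clec16a, which shares the family's name but encodes an intracellular protein of endosomes and autophagy, read 6.85, 6.88 and 6.96 in control and 6.97, 7.18 and 6.95 in deleted mice a, b and c. Its groups overlapped, with a difference of 0.14 ± 0.11 (SE).

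The 3 receptors listed here with an activating motif in their own tail were dim and differed little. They were Dectin-1 (Clec7a), which binds fungal beta-glucan, the platelet receptor CLEC-2 (Clec1b), and DNGR-1 (Clec9a), with which dendritic cells sense dead cells. Their differences were -0.087 to 0.09, and Clec7a read 5.40 to 5.71 over all mice. Clec5a, which couples to the adaptor DAP12 (Tyrobp), differed by 0.27 ± 0.16 (SE), with overlapping groups. Both endothelial members had negative differences. Clec14a read 4.82, 4.66 and 5.01 in control and 4.63, 4.51 and 4.59 in deleted mice a, b and c, a difference of -0.25 ± 0.12 (SE), and Clec1a differed by -0.08 ± 0.13 (SE) with overlap.

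On the genome, 25 of the 33 members lie on chromosome 6, most of them in 2 runs. The first run holds 9 Clec4 genes and ends with Clec4n, Clec4d and Clec4e, next to each other in the RefSeq order. Their differences of 0.335, 0.859 and 1.57 stood beside -0.032 to 0.369 for the 6 genes before them. The second run holds 13 members, from Clec2j to Clec7a, among them Clec2i. Next to Clec2i among the measured genes stood Klrb1b, with a difference of 0.014, and Clec2g, with 0.036. Of 23 genes listed between members, 6 were measured, and 0 passed limma's test. Klrb1f, 1 of the 6 (16.7%), had an unadjusted p under 0.05 in limma, beside 15.9% of all genes. Klrb1c differed by 0.18 ± 0.15 (SE; adjusted p = 0.608) and Klrb1 by 0.07 ± 0.11 (adjusted p = 0.819).

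**Figure D3:**
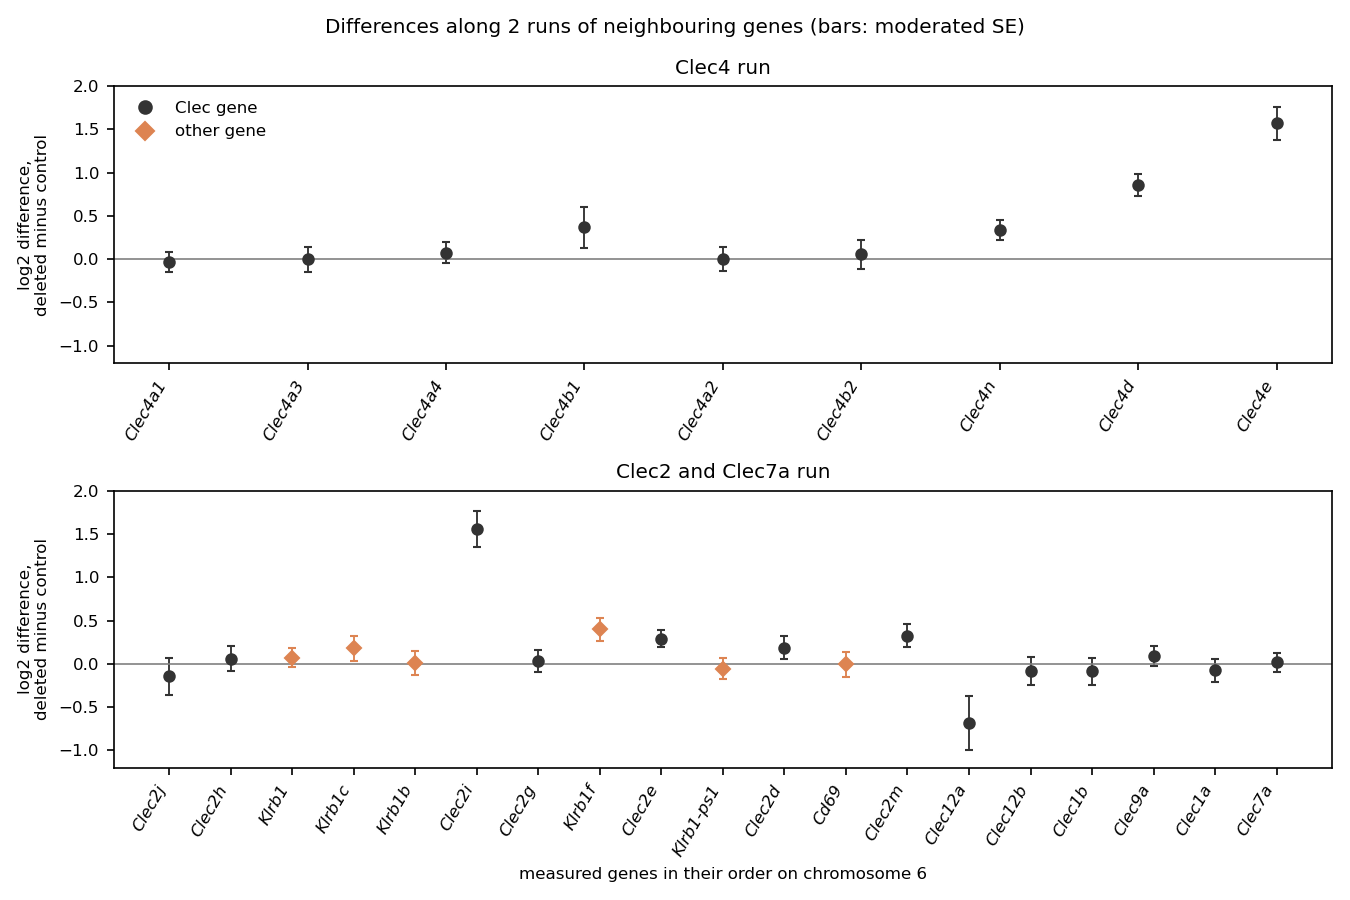
Log2 difference with its SE (y axis) for the measured genes of both chromosome 6 runs in RefSeq gene order (x axis, not to scale in bases); members and the genes between them have different symbols. High values stand at Clec4e, Clec4d and Clec2i, with Klrb1b and Clec2g beside Clec2i at 0.014 and 0.036.

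The start regions of Clec4e, Clec4d and Clec2i are shown because these genes led the rises, and that of Clec12a because it had the most negative difference. Capitals mark matches to the C/EBP motif TTGCNNAA or to the core motif GAGGAA of PU.1, a myeloid factor, on either strand (TTNNGCAA and TTCCTC). The sequences are from RefSeq on GRCm38.p6, run in the direction of transcription, and hold 250 bases before the start and 50 after it.
Clec4e, chr6:123289822-123290121, minus strand: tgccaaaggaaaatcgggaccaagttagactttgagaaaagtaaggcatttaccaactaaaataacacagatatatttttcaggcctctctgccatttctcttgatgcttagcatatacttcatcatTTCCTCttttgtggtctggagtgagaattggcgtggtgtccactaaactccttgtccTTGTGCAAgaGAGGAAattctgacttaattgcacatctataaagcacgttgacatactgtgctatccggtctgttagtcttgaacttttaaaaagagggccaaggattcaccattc
Clec4d, chr6:123261857-123262156, plus strand: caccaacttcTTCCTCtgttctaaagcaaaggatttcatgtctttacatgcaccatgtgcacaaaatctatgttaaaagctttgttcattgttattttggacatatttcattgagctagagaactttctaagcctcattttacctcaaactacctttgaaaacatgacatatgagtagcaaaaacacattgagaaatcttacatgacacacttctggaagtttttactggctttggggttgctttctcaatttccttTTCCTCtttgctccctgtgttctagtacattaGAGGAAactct
Clec2i, chr6:128887337-128887636, plus strand: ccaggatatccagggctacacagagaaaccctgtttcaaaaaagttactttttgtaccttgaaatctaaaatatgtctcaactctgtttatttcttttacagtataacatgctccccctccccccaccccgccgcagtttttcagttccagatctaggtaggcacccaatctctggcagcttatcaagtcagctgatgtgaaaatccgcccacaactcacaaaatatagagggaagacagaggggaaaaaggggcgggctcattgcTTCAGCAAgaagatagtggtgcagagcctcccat
Clec12a, chr6:129349994-129350293, plus strand: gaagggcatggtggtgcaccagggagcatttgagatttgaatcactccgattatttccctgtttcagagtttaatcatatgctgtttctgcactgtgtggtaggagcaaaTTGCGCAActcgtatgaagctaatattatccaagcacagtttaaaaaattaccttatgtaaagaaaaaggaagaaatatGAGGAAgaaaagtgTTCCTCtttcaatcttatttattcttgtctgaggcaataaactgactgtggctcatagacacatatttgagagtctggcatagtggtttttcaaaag
Counting the base before the start as the first upstream base, the C/EBP match of Clec4e (TTGTGCAA) begins 66 bases upstream, and a PU.1 match begins 56 bases upstream. Clec4d holds no C/EBP match in its window and PU.1 matches beginning 240 bases upstream and at bases 8 and 40 of the transcript. Clec2i holds a C/EBP match (TTCAGCAA) at base 17 of the transcript and no PU.1 match. In Clec12a the C/EBP match (TTGCGCAA) reads alike on both strands and begins 140 bases upstream, with PU.1 matches at 61 and 47 bases upstream.

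RefSeq windows were found for 26 of the 33 members, 29 windows in all. The C/EBP motif occurred in 6 of them (20.7%), against 10.8% of all 32851 windows. The PU.1 motif occurred in 16 (55.2%), against 28.3% of all. By gene these were 5 and 15 of the 26 members, since Clec2i and Clec7a have overlapping windows that hold the same match. The share over all windows was not counted by gene. Both occurred in 4 member windows (13.8%), those of Clec11a, Clec12a, Clec16a and Clec4e, against 2.92% of all. These matches describe letters only, and no binding was measured. In Clec4e and in Clec11a the C/EBP match is followed after 2 bases by GAGGAA, a spacing noticed after the sequences were seen. The C/EBP match is to TTNNGCAA in Clec4e and to TTGCNNAA in Clec11a. That spacing, on either strand, occurred in 5 of the 32851 windows, 2 of which belong to members. Those 2 are the windows that gave the spacing, so nothing is read from this count. The Clec11a stretch, from 170 to 131 bases upstream, is shown for comparison with Clec4e.
Clec11a, chr7:44307090-44307129, minus strand: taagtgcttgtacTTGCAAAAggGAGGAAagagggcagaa

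The genes that carry the signal of these receptors were followed in a list of 36 genes, of which 32 were measured. Of these, 1 rose and 0 fell in limma, and 8 (25%) had an unadjusted p under 0.05, beside 15.9% of all genes. There were 19 positive and 13 negative differences, with a median of 0.076 beside 0.029 over all genes. The riser was Tyrobp (DAP12), the adaptor of Clec5a. It read 10.55, 10.51 and 10.62 in control and 11.61, 11.51 and 11.15 in deleted mice a, b and c, a difference of 0.86 ± 0.13 (SE; limma adjusted p = 0.0165). Without control mouse a or b, or deleted mouse a or b, the adjusted p was 0.0558, 0.0781, 0.057 and 0.0791, and its call was lost.

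Fcer1g, the adaptor of Clec4e, Clec4d and Clec4n, read 7.46, 7.63 and 8.08 in control and 8.43, 8.64 and 8.23 in deleted mice a, b and c. The groups did not overlap, and the difference was 0.71 ± 0.17 (SE; limma adjusted p = 0.0783). Without control mouse c it was 0.89, with an adjusted p of 0.0357. In no other alternative did Fcer1g pass, with a difference as low as 0.58 and an adjusted p of up to 0.226 in limma. Prkcd, the kinase between Syk and Card9, differed by -0.41 ± 0.10 (SE; limma adjusted p = 0.0788). Syk differed by 0.06 (adjusted p = 0.857) and Card9 by 0.34 ± 0.10 (adjusted p = 0.149).

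**Figure D4:**
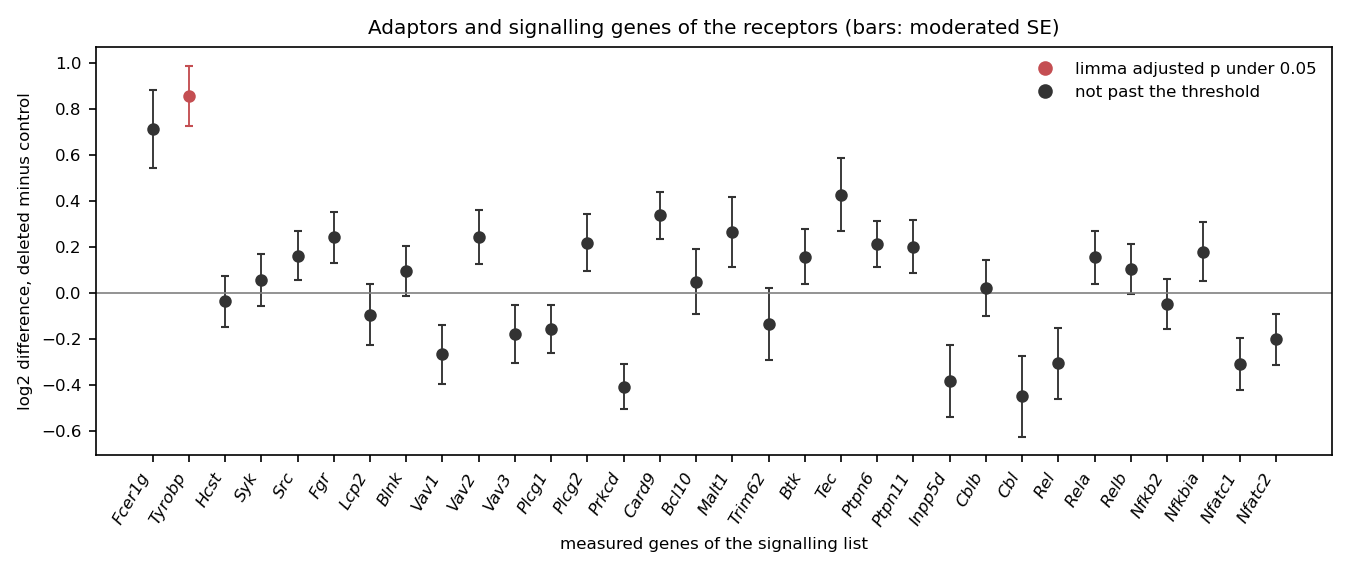
Log2 difference with its SE (y axis) for the 32 measured genes of the signalling list (x axis). Tyrobp, the only gene past limma's threshold, stands at 0.859, Fcer1g at 0.713 and Prkcd at -0.408.

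Cytokines, chemokines and enzymes that these receptors are known to induce made a list of 24 genes, all measured. Of these, 0 changed in limma, and 3 (12.5%) had an unadjusted p under 0.05, beside 15.9% of all genes. There were 12 positive and 12 negative differences, with a median of -0.003. The smallest p-values were those of Pla2g4a, a phospholipase of lipid mediator synthesis, at 0.39 ± 0.12 (SE; limma adjusted p = 0.164), Il10 at 0.35 ± 0.14 (adjusted p = 0.266) and Il6 at 0.53 ± 0.23 (adjusted p = 0.286). The chemokine gene Ccl3 varied among the controls, with 5.43, 7.04 and 7.29 in mice a, b and c against 5.96, 5.997 and 5.87 in deleted mice. Its difference was -0.64 with all mice (limma adjusted p = 0.475) and -1.22 without control mouse a (adjusted p = 0.0075). In no other alternative did Ccl3 pass, with an adjusted p of up to 0.787.

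Of 80 other genes with a C-type lectin domain, 71 were measured. Of these, 0 rose and 1 fell in limma, 9 (12.7%) had an unadjusted p under 0.05 beside 15.9% of all genes, and the median difference was 0.024. The gene that fell was Cd72, an inhibitory receptor of B cells. It read 9.09, 9.16 and 9.22 in control and 8.51, 8.14 and 8.40 in deleted mice a, b and c, a difference of -0.81 ± 0.12 (SE; limma adjusted p = 0.0151). The adjusted p was 0.0701 without control mouse b and 0.0539 without deleted mouse b. Cd93, a receptor of early progenitors and endothelium, differed by -0.51 ± 0.15 (SE; limma adjusted p = 0.144) and by -0.68 without control mouse c (adjusted p = 0.0417). In no other alternative did Cd93 pass, with an adjusted p of up to 0.371. Pkd1, the gene of polycystin, differed by -0.36 ± 0.11 (adjusted p = 0.152).

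The 5 genes of the Nkrp1 receptor family, some of whose members bind Clec2 ligands, were all measured and all dim. Their 5 differences were positive, as were 11272 of 19938 over all genes, with a median of 0.179 beside 0.029 over all genes. In limma 0 of them passed, and 1 (20%), Klrb1f, had an unadjusted p under 0.05, beside 15.9% of all genes. These 5 genes are also among the 71 other C-type lectin genes, and Klrb1f is also counted between the members. Klrb1f, a receptor of the Clec2i product, read 5.41, 5.03 and 5.34 in control and 5.75, 5.48 and 5.75 in deleted mice a, b and c. Its difference was 0.40 ± 0.13 (SE; limma adjusted p = 0.19), and that of Klrb1a was 0.19 ± 0.10 (adjusted p = 0.396).

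Many of the receptors are known from mature myeloid and lymphoid cells, so marker lists of such cells are given beside them as the range over mice of each list's mean log2 level. The neutrophil list (12 of 12 measured) was at 6.11 to 6.17 in control and 5.31 to 5.38 in deleted mice, and 4 of its genes fell, namely S100a8, S100a9, Camp and Csf3r. S100a8 and S100a9 differed by -3.515 and -3.366, and the median over the list was -0.3, with 3 positive and 9 negative differences. Of the neutrophil genes 6 were below the median of all values on every array. The monocyte and macrophage list (10 of 12) was at 6.44 to 6.59 and 6.40 to 6.62, and Cd68 fell. The dendritic cell list (12 of 12) was at 6.83 to 7.04 and 6.77 to 6.84, and Flt3, which progenitors also express, fell. The calls of S100a8, S100a9 and Cd68 were kept with any one mouse left out. That of Camp was lost without control mouse a or c or deleted mouse b or c, that of Csf3r without any one mouse but deleted mouse a, and that of Flt3 without any one mouse but deleted mouse c and after each of the 3 other normalizations. Cells of these kinds express Clec4e, Clec4d, Clec10a and Clec12a.

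The mast cell and basophil list (9 of 10) was at 5.96 to 6.02 in control and 6.28 to 6.49 in deleted mice. Of its genes Cpa3 alone rose, by 3.47 ± 0.12 (SE), and without it the other 8 were at 5.70 to 5.79 and 5.66 to 5.85, with a median difference of 0.032. The natural killer and innate lymphoid list (12 of 12) was at 5.51 to 5.60 and 5.67 to 5.79, with 0 genes called. Of its differences 11 were positive and 1 negative, with a median of 0.143 beside 0.029 over all genes. In limma 3 of its genes (25%) had an unadjusted p under 0.05, beside 15.9% of all genes. In that list 7 genes, and in the mast cell list 5, were below the median of all values on every array. The platelet list (5 of 8), which bears on Clec1b, was at 6.72 to 6.83 and 6.68 to 6.69. The endothelial and stromal list (10 of 10), which bears on Clec14a and Clec1a, was at 6.18 to 6.22 and 6.15 to 6.27. In it the pericyte gene Pdgfrb rose by 0.99 ± 0.13 (SE; limma adjusted p = 0.0104, and 0.0541 without control mouse b). Emcn, of the same list, fell by 0.97 ± 0.18 (SE; limma adjusted p = 0.038). Its call was lost without any one mouse (0.0617 to 0.125) and with the title letter as a replicate block (0.0633). The B and T cell list (10 of 12) was at 5.41 to 5.49 and 5.37 to 5.67. The part of such cells in the differences of the receptors was not tested.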

How the data were processed

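Total RNA (20 ng) of sorted cells was amplified and 2.5 µg of cDNA labelled with biotin for Affymetrix Mouse Gene 1.0 ST arrays, per the labels' protocols. The values are on a log2 scale, 1 per probe set and array, and were used as deposited by the authors. The submitters' processing notes name RMA and version 1.1.2 of Affymetrix Expression Console. The sources used here give neither the settings of RMA nor the annotation build. Of 35556 rows, 21789 name 1 gene, 1621 several, and 12146 are unnamed here. For the 999 genes with several rows the row with the highest mean over 6 arrays was kept, which left 19938 genes. No filter on dim values was applied, and no detection calls were used. The number of arrays limits the precision.

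The comparison of deleted with control mice used limma 3.58.1 under R 4.3.3 (a linear model with eBayes, two-sided, Benjamini-Hochberg over all genes, threshold 0.05, prior 5.52 degrees of freedom), and the fit was tested on simulated data. Gene order and promoter windows came from RefSeq (GRCm38.p6), with Python 3.11.15 for the rest. Alternatives were 2 other priors, 2 intensity filters, 3 normalizations, averaging a gene's rows, the letter of the title as a block, and leaving out each array.

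Members, lists and motifs were chosen with earlier results of these data known. Members at or above the median of all values on an array, those differing by 0.5 or more, and Clec4e, Clec4d and Clec2i were named with values. Of other lists, genes that passed were named, and outside the marker lists the 3 smallest p-values where fewer than 3 did. Further members named by role, Syk, Card9 and Ccl3 were added after their values were seen.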

Additional observations from a re-analysis of the deposited data

How the results depend on the processing

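The Cebpa difference was called in every one of the 15 alternatives, at -1.85 to -1.57 on the log2 scale. Among 19938 genes 286 changed. With genes at or above the median intensity, 9969 were tested and 438 changed, 240 of them shared with the 286. Leaving out 1 array gave 53 to 250 changed genes, and the title letter as a replicate block gave 274. Mice of the same letter did not deviate together (correlations of -0.039 to 0.061), so the letters were not taken as pairs. Of the 4 members meeting the rule for higher genes, 4 did so with that replicate block and 2, Clec4e and Clec2i, with genes at or above the median intensity, where Clec4d and Clec10a were not tested. With 1 array left out, 1 to 3 members did. Clec10a did not with any one array left out, nor after cyclic loess. Clec4e did so each time, alone without control mouse b, and with Clec2i without control mouse a or deleted mouse b or c. Their differences ranged over all alternatives from 1.38 to 1.77 in Clec4e, 1.40 to 1.79 in Clec2i, 0.81 to 0.96 in Clec4d and 0.55 to 0.76 in Clec10a. With 1 array left out, the signalling list had 0 to 2 changed genes, the list of induced genes 0 to 1, the other C-type lectin genes 0 to 2, and both the Nkrp1 receptors and the genes between members 0. No Nkrp1 gene passed the filter at the median intensity, so that setting gave no value. Of 251 values of named members, 2, both of Clec18a, moved by more than the replicate spread, and the others did not. Lost calls and changes of sign were not counted for members. Over the alternatives Clec1a ranged from -0.139 to 0.036, Clec12b from -0.272 to 0.04 and Clec4g from -0.12 to 0.011. Of 452 values of the other named genes, 47 lost a call, 3 gained one and 1 changed sign, that of Syk, which was -0.03 to 0.126 with 1 array left out. Without detection calls the 26 dim members cannot be placed relative to background, near which differences can be compressed.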
